A study of Arabidopsis thaliana with 33 samples.

Results

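Roots held for 24 h at an oxygen partial pressure of 5 kPa were compared with roots held at low total pressure with oxygen restored to 21 kPa. The comparison used 9 of the 33 arrays of the series and 9 of its 15 root arrays, chosen by the atmosphere in their labels and not by any measured value. The low-oxygen pool joined 3 arrays from unsupplemented air at 25 kPa (25 kPa) with 3 arrays from control pressure with oxygen reduced to about 5 kPa (97kPa/HypOx). The normal-oxygen pool joined 2 arrays from 50 kPa and 1 array from 25 kPa, each with oxygen raised to 21 kPa (50kPa/NormOx and 25kPa/NormOx). The 3 root arrays at control pressure and normal oxygen were left out of the comparison on purpose. The 3 root arrays at 50 kPa in unsupplemented air, with about 10 kPa oxygen, are given as a further measurement. Both of these groups also entered alternative fits, to estimate the spread. All plants were wild-type Arabidopsis of the ecotype Wassilewskija, 10 d old and light grown, on vertical plates of Murashige and Skoog medium with sucrose and benomyl. Light was continuous and CO2 was held constant in all treatments, and nitrogen was the balance gas where oxygen was adjusted. Each array came from a tube of pooled plants, with the replicates of a treatment taken from separate chambers. Total pressure was not matched, since the low-oxygen pool stood at 25 and 97 kPa and the normal-oxygen pool at 50 and 25 kPa, and only 1 array represented 25kPa/NormOx because of hybridization problems with the rest.

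Plants sense oxygen through plant cysteine oxidases, enzymes that use oxygen to oxidize the N-terminal cysteine of the group VII ethylene response factors (ERF-VII) and so mark these transcription factors for degradation. When oxygen is short the factors persist and activate a core set of genes for fermentation, sucrose cleavage, non-symbiotic hemoglobins and the oxidases themselves. Root cells then regenerate NAD+ by making ethanol and lactate in place of respiration, and sucrose synthase can open sucrose at a lower energy cost than invertase.

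The ATH1 array reads each gene with a probe set, and levels are on the log2 scale of the normalized intensities. The 9 arrays were alike over all probe sets, with correlations from 0.982 to 0.994 within a pool and from 0.980 to 0.990 between pools. The 3 measured markers of root tissue, the peroxidase PER44 and the root hair expansins EXPA7 and EXPA18, had a mean level of 7.60 in the low-oxygen pool and 7.52 in the normal-oxygen pool, and none passed the test. The annotation gives 13650 of the 22606 nuclear probe sets a single gene, 234 of them only through the study's own tables of changed genes. Lists named partly through those tables hold more changed genes than a blind sample would, so the counts within lists describe the measured members only. A list member counts as measured here only where its probe set has such a name, so other members can be on the array without a name.

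A short list of genes rose steeply at low oxygen, and the genes that fell did so by much less. At an adjusted p under 0.05 (limma), 743 probe sets passed, which was 3.29% of those tested. Of these, 378 were higher at low oxygen (1.67%), with a median difference of 0.61, and 365 were lower (1.61%), with a median of -0.48. Among those past the test, 55 were higher by at least 2-fold (0.243%) and 21 by at least 4-fold, against 3 lower by at least 2-fold (0.0133%) and 0 by 4-fold. At the study's threshold, an unadjusted p under 0.01 and a 2-fold difference, 57 were higher and 3 were lower (0.265% in all). The arrays of the pools did not overlap for 373 of the 378, where 4.31% of all probe sets were higher without overlap, and for 360 of the 365, where 5.14% were lower without overlap (9.45% in either direction). The count of 743 depended on single arrays, and it was 439 without 25 kPa replicate 2, 197 and 227 without 50kPa/NormOx replicates 1 and 2, and 293 without the 25kPa/NormOx array, while the count of 2-fold rises stayed between 50 and 65 in every such fit. RNA came from whole roots, so a change in the number of cells of a type and a change in RNA per cell cannot be told apart.

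**Figure D1:**
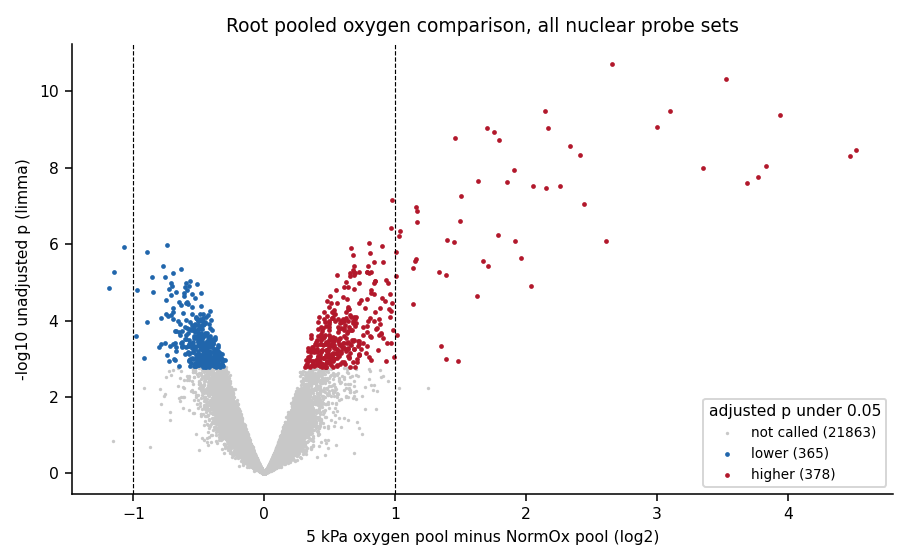
Each point is a nuclear probe set, with the low-oxygen pool minus the normal-oxygen pool in log2 units on the horizontal axis and the negative log10 of the unadjusted limma p on the vertical axis. Red and blue points passed an adjusted p under 0.05, and the dashed lines mark 2-fold. The 378 red points reach 4.52 on the right, whereas the 365 blue points reach only -1.18 on the left.

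Most measured members of the oxygen-sensing module rose. Of 17 listed genes, 6 had a named probe set, 5 of them named only through the study's tables of changed genes. Of the 6, 5 rose and 0 fell, with a median difference of 1.91 (-0.002 over all probe sets). That naming favours changed genes, so the count and the median describe these 6 only. PCO1 (AT5G15120), a plant cysteine oxidase that marks ERF-VII factors for removal, ranged from 8.57 to 9.14 with a median of 9.01 on the 6 low-oxygen arrays, and read 6.53 and 7.29 at 50kPa/NormOx and 6.48 at 25kPa/NormOx. Every low-oxygen array lay above every normal-oxygen array, a rise of 2.15 (SE 0.18) or 4.44-fold (adjusted p = 3e-05). Its relative PCO2 (AT5G39890) spanned 4.34 to 5.08 at low oxygen against 4.38, 4.32 and 4.15, so that the pools overlapped, and its difference of 0.30 (adjusted p = 0.353) did not pass. The ERF-VII gene ERF073 (AT1G72360, also HRE1), which is itself induced by low oxygen, spanned 7.85 to 8.37 with a median of 8.04, against 6.02, 5.96 and 5.74. Its pools were each narrow and far apart, and the rise was 2.15 (SE 0.12, adjusted p = 1.81e-06). ERF071 (AT2G47520, also HRE2), the related factor, spread more widely at low oxygen, from 5.86 to 7.08 with a median of 6.66, against 4.91, 4.80 and 4.86. The lowest of these arrays was 25 kPa replicate 3, which still lay above all normal-oxygen arrays, and the rise was 1.67 (SE 0.21, adjusted p = 0.00119).

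Downstream regulators of the same module also rose. LBD41 (AT3G02550), a LOB-domain transcription factor that is a standard marker of low oxygen, spanned 9.61 to 10.95 with a median of 10.42, against 7.49, 8.44 and 7.29. It rose 6.09-fold (2.61, SE 0.29, adjusted p = 0.000481), and its 3 highest values were those of 97kPa/HypOx. HRA1 (AT3G10040), a trihelix factor that restrains an ERF-VII factor, rose least at 0.68 (SE 0.16, adjusted p = 0.0426). Its levels were low on every array, from 4.20 to 5.20 against 4.08, 3.89 and 3.98, and it lost the call without any of 7 single arrays, with adjusted p between 0.0534 and 0.166.

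Fermentation genes rose for 4 of the 6 measured, with 0 lower and a median of 1.19 (1.67% of all probe sets rose). The list held 11 genes, and 3 of the 6 measured were named only through the study's tables of changed genes. The count and the median therefore describe these 6 only. The rise was steepest for PDC1 (AT4G33070), pyruvate decarboxylase, which commits pyruvate to ethanol. Its level ran from 9.41 to 10.20 with a median of 9.72 at low oxygen, and stood at 5.55 and 7.04 at 50kPa/NormOx and 5.38 at 25kPa/NormOx. The normal-oxygen arrays differed among themselves by more than the low-oxygen arrays did, yet the pools were well apart, with a rise of 3.77 (SE 0.30) or 13.6-fold (adjusted p = 2.12e-05). ADH1 (AT1G77120), alcohol dehydrogenase, which completes ethanol formation, spanned 6.09 to 6.89 with a median of 6.49, against 4.86, 5.19 and 4.93. Its rise of 2.81-fold (1.49, SE 0.15, adjusted p = 0.000179) was held by every low-oxygen array. The second pyruvate decarboxylase gene, PDC2 (AT5G54960), rose by 1.33 (SE 0.18, adjusted p = 0.00179) and lactate dehydrogenase (AT4G17260), which makes lactate from pyruvate, by 1.04 (SE 0.11, adjusted p = 0.000307). Alanine aminotransferase ALAAT1 (AT1G17290), which turns pyruvate into alanine and whose probe set can match more than a single gene, differed by 0.61 with overlapping pools and did not pass (adjusted p = 0.107), though it passed with each atmosphere as its own group (adjusted p = 0.0307), with the NormOx atmospheres weighted equally (0.75, adjusted p = 0.0187) and for 97kPa/HypOx alone (0.70, adjusted p = 0.0460). The sixth member measured differed by -0.07.

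Transcripts of the sucrose synthases rose, while only 6 of the 27 listed sucrose cleavage and glycolysis genes had a named probe set. SUS4 (AT3G43190) spanned 9.77 to 10.33 with a median of 9.97, against 7.40, 8.08 and 7.55, a rise of 5.04-fold (2.33, SE 0.16, adjusted p = 5.1e-06). SUS1 (AT5G20830) spanned 9.63 to 10.10 with a median of 9.82, against 7.93, 8.26 and 8.04, a rise of 3.46-fold (1.79, SE 0.12, adjusted p = 3.91e-06). For either sucrose synthase the lowest of the low-oxygen arrays stood more than 1 log2 unit above the highest normal-oxygen array. The aldolase FBA6 (AT2G36460), a glycolytic enzyme, rose by 0.93 (SE 0.13, adjusted p = 0.00239), with 97kPa/HypOx replicate 2 at 8.67 and the other low-oxygen arrays from 8.02 to 8.18. GAPC2 (AT1G13440), a cytosolic glyceraldehyde-3-phosphate dehydrogenase, read 11.19 to 11.94 against 11.18, 11.10 and 11.03, and its difference of 0.40 did not pass (adjusted p = 0.128). In all 3 of 6 members rose and 0 fell (1.67% of all probe sets rose), and the remaining pair differed by -0.03 and 0.03. The 3 that rose were named only through the study's tables of changed genes, which favours changed genes. The 3 named by the platform annotation did not pass.

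Hemoglobins rose and the superoxide dismutases did not pass. AHB1 (AT2G16060), the non-symbiotic hemoglobin that scavenges nitric oxide at low oxygen, spanned only 11.44 to 11.77 with a median of 11.63, against 8.63, 9.64 and 9.34. Its low-oxygen arrays lay close together, well above all normal-oxygen arrays, and the rise was 5.31-fold (2.41, SE 0.17, adjusted p = 7.45e-06). GLB3 (AT4G32690), a truncated hemoglobin, held 7.87 to 7.95 on all 6 low-oxygen arrays, against 6.76, 7.13 and 6.92. This was the narrowest low-oxygen pool of the genes described, and the rise was 0.98 (SE 0.09, adjusted p = 5.9e-05). The universal stress protein AT3G03270 (HRU1), linked to reactive oxygen under low oxygen, spanned 10.78 to 11.37 against 8.22, 9.22 and 8.90 and rose 4.79-fold (2.26, SE 0.19, adjusted p = 2.87e-05). The iron superoxide dismutase FSD1 (AT4G25100), which depends on iron and copper supply, ran from 8.90 to 11.03 at low oxygen, against 10.27, 10.43 and 10.79. Within 25 kPa it read 8.90, 11.02 and 9.79, so that replicates of the same atmosphere differed by over 2 log2 units and no difference could be resolved (-0.08, SE 0.41, adjusted p = 0.956). The copper/zinc superoxide dismutases CSD1 and CSD2 differed by 0.10 and 0.02 and were highest on the array where FSD1 was lowest, 25 kPa replicate 1, at 11.50 and 9.60.

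**Figure D2:**
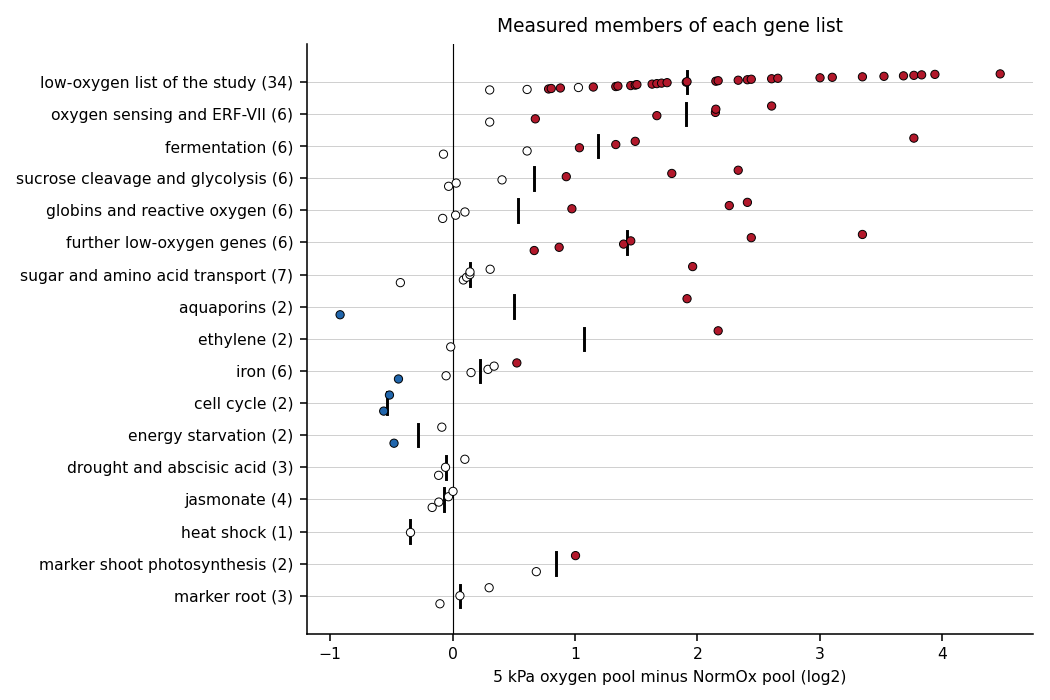
Each point is a measured member of a gene list, with the low-oxygen pool minus the normal-oxygen pool in log2 units on the horizontal axis and the number of members in parentheses. Red points rose, blue points fell and white points did not pass, and the black bar is the list's median. The low-oxygen lists lie to the right with medians of 1.19 to 1.91 for fermentation, further low-oxygen genes, oxygen sensing and the study's list. Each of these owes members to the study's tables of changed genes. The drought, jasmonate, heat shock and root marker lists have no coloured point, but only 1 to 4 measured members each, where 3.29% of all probe sets passed.

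Several of the largest rises were those of proteins with little or no described function. AT3G29970, annotated as a B12D protein, spanned 10.38 to 11.05 with a median of 10.56, against 5.12, 7.08 and 6.17. It had the largest difference of any probe set that passed, 22.9-fold (4.52, SE 0.31, adjusted p = 6.11e-06). AT5G10040, a protein without a described function, spanned 8.81 to 9.95 with a median of 9.47, against 4.23, 5.84 and 4.87. It rose 22.2-fold (4.48, SE 0.32, adjusted p = 7.45e-06), and its lowest low-oxygen array was far above its highest normal-oxygen array. AT4G33560, of the wound-responsive protein family, spanned 9.34 to 9.89 with a median of 9.66, against 4.99, 6.40 and 5.75. It rose 15.4-fold (3.94, SE 0.23, adjusted p = 1.83e-06), and its relative AT4G10270 rose 12.9-fold from 6.53, 7.93 and 6.55 to a median of 10.76. STR17 (AT2G17850), a rhodanese-like sulfurtransferase, spanned 8.62 to 9.38 with a median of 9.10, against 4.55, 6.20 and 4.88, a rise of 14.3-fold (3.83, SE 0.28). AT1G33055, another protein without a described function, held 9.67 to 9.99 against 5.81, 6.82 and 6.20, a rise of 11.5-fold (3.53, SE 0.17, adjusted p = 5.25e-07). Its low-oxygen arrays were closely placed, and the spread sat in the normal-oxygen pool.

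Further members of the core low-oxygen response rose as well. S-ACP-DES6 (AT1G43800), a stearoyl-ACP desaturase of fatty acid synthesis, spanned 9.28 to 10.19 with a median of 9.72, against 5.86, 7.16 and 6.14, a rise of 10.2-fold (3.35, SE 0.25). AT4G27450, an aluminium-induced protein with YGL and LRDR motifs, held 11.50 to 11.71 against 7.95, 9.05 and 8.49, a rise of 8.59-fold (3.10, SE 0.17). The low-oxygen arrays of this gene lay much closer together than its normal-oxygen arrays. The uncharacterized genes AT4G39675 and AT5G66985 rose 8.02-fold and 6.31-fold, with low-oxygen arrays of 10.65 to 10.87 and 9.39 to 9.79. CML38 (AT1G76650), a calmodulin-like protein, spanned 5.90 to 7.18 with a median of 6.28, against 3.89, 4.09 and 3.96, a rise of 5.43-fold (2.44, SE 0.22, adjusted p = 7.19e-05). It was lowest on the 25 kPa arrays and highest on 97kPa/HypOx. The lipocalin ATTIL (AT5G58070) rose 2.74-fold with arrays from 9.93 to 10.23 against 8.49 to 8.80. All 6 measured genes of the 12 in the further low-oxygen list rose, with a median of 1.43, where 1.67% of all probe sets rose. The members of this list were chosen with earlier results of these data known, so their count describes the 6 only. Of the 34 genes in the study's own low-oxygen list, 31 rose and 0 fell, with a median of 1.91. That list is the portion of an earlier core set that the study kept for its response on arrays of this series, so its count is not independent evidence of a direction. Of the 55 rises of at least 2-fold, 28 were in it.

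**Figure D3:**
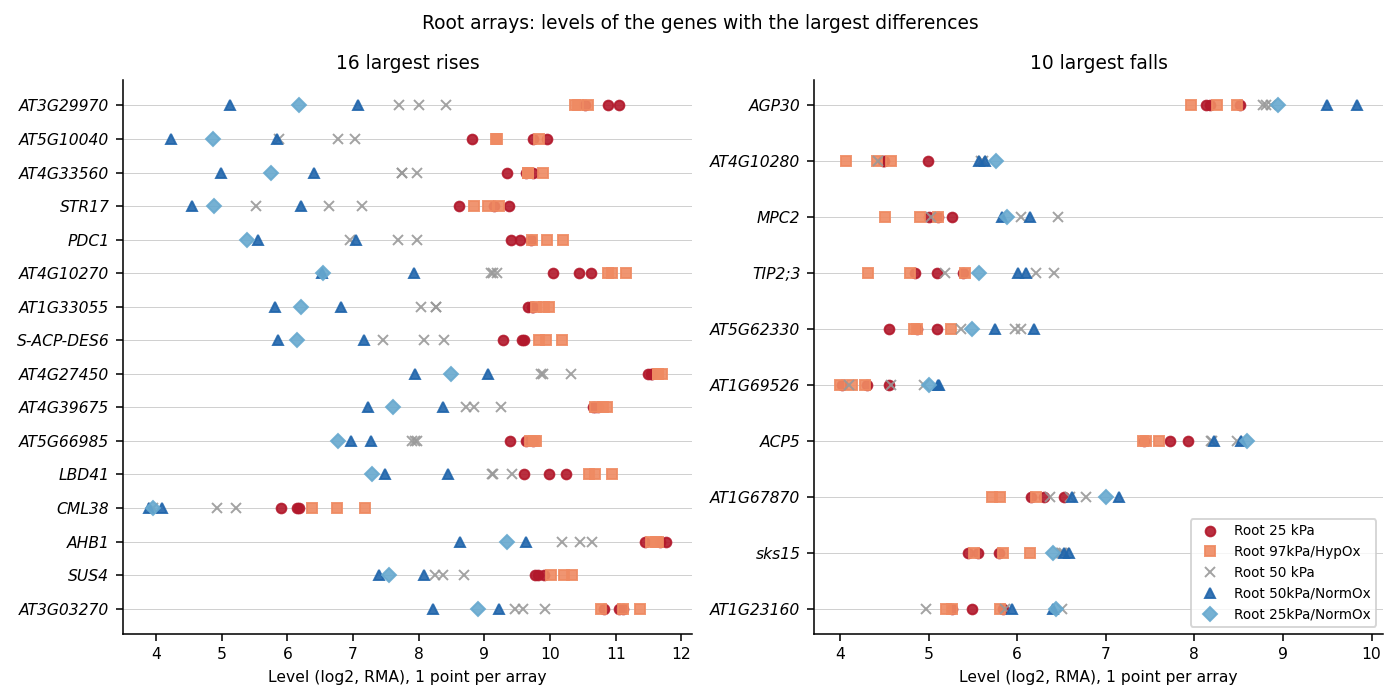
Levels in log2 units on the horizontal axis, 1 point per array, for the 16 named genes with the largest rise (left) and the 10 with the largest fall (right). The genes were chosen for pools that do not overlap, which fixes the separation of the pools in both panels. In the left panel the red and orange low-oxygen arrays lie to the right of all blue normal-oxygen arrays, with the grey 50 kPa arrays mostly between them. In the right panel the low-oxygen arrays lie to the left of the normal-oxygen arrays over a much shorter distance, with mean differences from -0.79 to -1.18, and most of the 50 kPa arrays do not lie between the pools.

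Ethylene, transport and water channel genes gave 1 or few rises each. ACO1 (AT2G19590), an ACC oxidase that performs the last step of ethylene synthesis, spanned 9.46 to 9.83 with a median of 9.56, against 7.08, 7.76 and 7.42, a rise of 4.50-fold (2.17, SE 0.13, adjusted p = 2.63e-06). The ethylene signalling factor EIN3 differed by -0.02 and did not pass. UMAMIT14 (AT2G39510), an amino acid exporter, spanned 9.13 to 10.28 with a median of 9.69, against 7.58, 7.89 and 7.78. It rose 3.90-fold (1.96, SE 0.24, adjusted p = 0.00104), while the other 6 measured transporters of sugars, amino acids and nitrate did not pass, with differences from -0.43 for the phloem sucrose transporter SUC2 to 0.31. NIP2;1 (AT2G34390), a channel of the NIP family that can carry lactic acid, spanned 5.11 to 6.24 with a median of 5.52, against 3.69, 3.87 and 3.50. It rose 3.77-fold (1.92, SE 0.21, adjusted p = 0.000478), although its probe set can match more than a single gene. The vacuolar membrane channel TIP2;3 (AT5G47450) instead fell by 0.92 (SE 0.21, adjusted p = 0.0376), a call that was lost without any of 6 single arrays, with adjusted p from 0.0575 to 0.183.

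The falls were small and concerned genes of several kinds. AGP30 (AT2G33790), an arabinogalactan protein of the root cell wall, spanned 7.96 to 8.51 with a median of 8.22, against 9.50, 9.84 and 8.95. It fell by 1.18 (SE 0.17) or 2.27-fold (adjusted p = 0.00332), the largest fall of any probe set that passed, and the lone 25kPa/NormOx array lay nearest to the low-oxygen pool. AT4G10280 spanned 4.07 to 4.99 with a median of 4.49, against 5.57, 5.64 and 5.76, and fell by 1.15 (SE 0.15, adjusted p = 0.00179). MPC2 (AT4G14695), a subunit of the mitochondrial pyruvate carrier that brings pyruvate to respiration, spanned 4.51 to 5.26 with a median of 5.05, against 6.15, 5.83 and 5.89. Its fall of 0.97 (SE 0.14, adjusted p = 0.00341) left the pools clearly apart, at low levels. ACP5 (AT5G27200), an acyl carrier protein of fatty acid synthesis, spanned 7.42 to 7.93 against 8.22, 8.53 and 8.60, and fell by 0.85 (SE 0.13, adjusted p = 0.00375). The other named falls were -0.90 for AT5G62330, -0.86 for AT1G69526, -0.80 for the glycine-rich protein AT1G67870, -0.79 for the multicopper oxidase-like sks15 and -0.79 for AT1G23160. Without 50kPa/NormOx replicate 1 the calls of AT5G62330, AT1G67870, sks15 and AT1G23160 were lost (adjusted p = 0.0738, 0.150, 0.0714 and 0.135). Without replicate 2 those of AT5G62330 and sks15 were lost (0.0537 and 0.0568), without the 25kPa/NormOx array those of AT1G67870 and AT1G23160 (0.110 and 0.116), and without 25 kPa replicate 2 that of AT1G23160 (0.0505). With the spread taken from all 15 root arrays, AGP30 kept its call and the other 9 named falls, TIP2;3 included, lost theirs (adjusted p from 0.109 for ACP5 to 0.812 for AT1G23160, with 0.412 for AT4G10280 and 0.683 for MPC2). Those arrays include 97 kPa replicate 1, which stood apart, with a mean correlation of 0.884 to the others. The remaining root arrays had 0.966 to 0.98. With the 12 root arrays other than the controls, AT4G10280, MPC2, TIP2;3 and AT1G23160 still lost theirs (limma, adjusted p = 0.0506, 0.1065, 0.167 and 0.271).

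The few measured genes of growth, iron and carbon status moved little. Of 14 listed cell cycle genes, 2 had a named probe set, 1 of them only through the study's tables of changed genes. Both fell, where 1.61% of all probe sets fell. The mitotic kinase AUR1 (AT4G32830) fell by 0.56 (adjusted p = 0.0149) and MCM2 (AT1G44900), a subunit of the replication helicase, by 0.52 (adjusted p = 0.0112). MCM2 held 5.00 to 5.11 on the 6 low-oxygen arrays, against 5.33, 5.63 and 5.74. Without 50kPa/NormOx replicate 2 the adjusted p was 0.0852 for AUR1 and 0.0638 for MCM2, and without the 25kPa/NormOx array it was 0.0777 and 0.0590. EXO (AT4G08950), a cell expansion gene in the energy starvation list, fell by 0.48 (adjusted p = 0.0252), a call lost without any of the 3 normal-oxygen arrays (adjusted p = 0.0714, 0.125 and 0.0977), and the other member measured did not pass. The energy starvation list held 16 genes, of which 2 had a named probe set. Of 20 listed iron genes, 6 had a named probe set, 3 of them only through the study's tables of changed genes. Of the 6, 1 rose and 1 fell, with a median of 0.22, where 1.67% of all probe sets rose and 1.61% fell. AT3G13610, the F6'H1 enzyme of coumarin synthesis, rose by 0.53 (adjusted p = 0.0381) and the ferritin FER4 (AT2G40300), an iron store, fell by 0.44 (adjusted p = 0.0360), each a call that 6 of the 9 omissions of a single array removed. Their adjusted p then ran from 0.0592 to 0.169 and from 0.0506 to 0.187. The iron uptake regulator FIT differed by 0.34 and did not pass (adjusted p = 0.268), though it passed for 25 kPa alone (0.55, adjusted p = 0.0334). None of the measured drought and abscisic acid genes (3 of 18 listed), jasmonate genes (4 of 15) or heat shock genes (1 of 9) passed. Their differences lay between -0.35 and 0.10. Since 3.29% of all probe sets passed, so few members cannot show whether these responses were absent.

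A photosynthesis gene was among the rises. PSBO1 (AT5G66570), a subunit of the oxygen-evolving complex of photosystem II, spanned 7.84 to 8.37 with a median of 8.06, against 7.04, 6.96 and 7.16, a rise of 2.01-fold (1.00, SE 0.12, adjusted p = 0.00077). Of 15 listed shoot markers only PSBO1 and PSAD1, a photosystem I subunit, had a named probe set, both named only through the study's tables of changed genes. PSAD1 spanned 6.25 to 7.49 against 6.27, 6.54 and 6.25 and did not pass (0.68, adjusted p = 0.131). It passed, though, without 97kPa/HypOx replicate 3 (0.84, adjusted p = 0.0124) and for 25 kPa alone (0.98, adjusted p = 0.0403). Over the 100 probe sets with the largest shoot-minus-root difference at 97 kPa, a set chosen after the values were seen, the median level was 5.08, 5.11 and 5.53 at 25 kPa, 5.12, 4.99 and 4.98 at 97kPa/HypOx, and 4.96, 4.84 and 4.99 on the normal-oxygen arrays. The array from 25 kPa replicate 3 was therefore the highest, the other arrays of the pools lay between 4.84 and 5.12, and 7 of the 100 rose and 0 fell, where 1.67% of all probe sets rose and 1.61% fell. Of the 100 probe sets with the largest root-minus-shoot difference, 6 rose and 4 fell. The part of the shoot-high set in the rise of PSBO1 was not tested.

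The question of pressure can be set beside that of oxygen within the low-oxygen pool, whose arrays had the same oxygen partial pressure at 25 and 97 kPa. No probe set differed between 25 kPa and 97kPa/HypOx at an adjusted p under 0.05 (0 of 22606, limma), and 2445 did at an unadjusted p under 0.05 (10.8%), the smallest adjusted p being 0.334. That p belonged to UMAMIT14, chosen after the values were seen, which read 9.13, 9.37 and 9.29 at 25 kPa and 10.17, 10.28 and 10.01 at 97kPa/HypOx. It was higher in the reduced-oxygen arrays by 0.89 without overlap, but the difference did not pass. Among the 743 probe sets that passed the pooled test, 108 had an unadjusted p under 0.05 here (14.5%). With 3 arrays on each side, the count of 0 at an adjusted p under 0.05 does not show that these atmospheres had the same levels. Against the normal-oxygen pool, 361 were higher and 231 lower at 25 kPa (1.60% and 1.02%), and 225 were higher and 189 lower at 97kPa/HypOx (0.995% and 0.836%), with the same 3 normal-oxygen arrays on the other side of both.

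**Figure D4:**
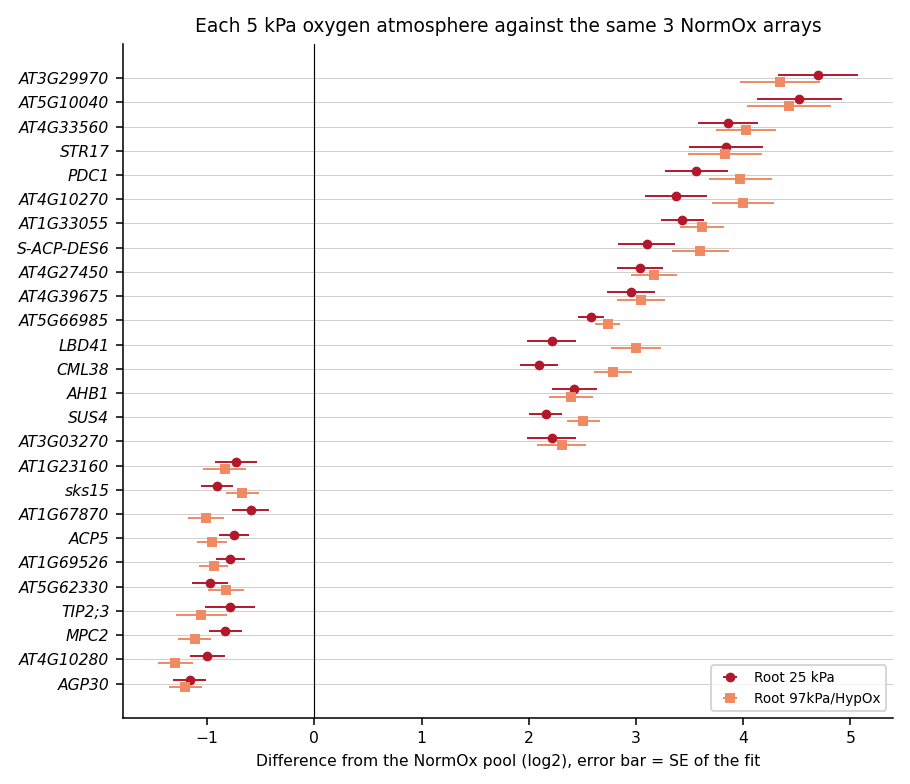
Difference of each low-oxygen atmosphere from the same 3 normal-oxygen arrays, in log2 units with the SE of the fit as error bar, for the 16 largest rises and 10 largest falls. Red circles are 25 kPa and orange squares 97kPa/HypOx. The genes were chosen for pools that do not overlap, which fixes the side of 0 for both symbols, and the sizes run from 4.70 and 4.34 for AT3G29970 to -1.16 and -1.20 for AGP30.

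Single genes were set side by side against the same normal-oxygen arrays. PDC1 was higher by 3.56 (SE 0.30) at 25 kPa and by 3.97 (SE 0.30) at 97kPa/HypOx, AHB1 by 2.43 and 2.39 (SE 0.21 each), and GLB3 by 0.95 and 1.00 (SE 0.11 each). LBD41 was higher by 2.21 and 3.00 (SE 0.23 each), SUS4 by 2.16 and 2.51 (SE 0.16 each) and ERF071 by 1.40 and 1.94 (SE 0.20 each), and for these the atmospheres did not differ past the test either (adjusted p = 0.355, 0.458 and 0.400). At matched total pressure, 3 arrays of 25 kPa stood against the lone 25kPa/NormOx array. The spread at 25kPa/NormOx cannot be measured from its lone array, so no call is read from this comparison here. The genes given were chosen with these same arrays in the pools, so their direction here is not separate evidence. As differences in that comparison, PDC1 was higher by 4.18, AT1G33055 by 3.51 and LBD41 by 2.66, whereas AGP30 differed by -0.68, AT4G10280 by -1.10 and MPC2 by -0.77.

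The normal-oxygen arrays were not at a common base level for the genes that rose. Over the 55 rises of at least 2-fold, their medians were 6.17 and 6.78 for 50kPa/NormOx replicates 1 and 2 and 6.44 for 25kPa/NormOx, against 8.26 to 8.81 on the low-oxygen arrays. Replicate 2 of 50kPa/NormOx was the highest of the 3 for 38 of the 55 and replicate 1 the lowest for 36, with a median gap of 0.37 between them, where the median gap over all probe sets was 0. Between 25kPa/NormOx and 50kPa/NormOx no probe set passed (0 of 22606 at an adjusted p under 0.05, limma, and 1106 at an unadjusted p under 0.05, 4.89%). With a single array on 1 side, that count of 0 does not show that these atmospheres had the same levels.

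Roots at 50 kPa in unsupplemented air, at an oxygen level between the pools, had mean levels between the pool means for most of the genes that rose. The 50 kPa mean lay between the pool means for 54 of the 55 rises, at a median of 37.3% of the way from the normal-oxygen to the low-oxygen mean. Over all 22606 probe sets the 50 kPa mean lay between the pool means for 32.1%. The 55 were chosen for a gap of at least 2-fold between the pools, which leaves more room for a mean to fall between them. These shares therefore cannot be set against each other. The median level of the 55 was 7.28, 7.36 and 7.69 on the 3 arrays at 50 kPa, above each normal-oxygen array and below each low-oxygen array. AT1G33055 read 8.27, 8.04 and 8.27 at 50 kPa, AHB1 10.45, 10.18 and 10.64, and SUS1 8.53, 8.68 and 8.74, each between the pools on every array. ERF071 read 5.70, 4.69 and 4.74, so that replicates 2 and 3 were at the normal-oxygen level. Of the probe sets that passed, 308 of 378 higher and 288 of 365 lower had their 50 kPa mean between the pool means. They too were chosen for a difference between the pools.

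Fewer probe sets passed in shoots of the same treatments. The shoot comparison pooled 5 arrays at low oxygen (25 kPa, 3, and 97kPa/HypOx, 2) against 7 with oxygen restored (50kPa/NormOx, 4, and 25kPa/NormOx, 3), and 21 probe sets passed (0.0929%), 12 higher (0.0531%) and 9 lower (0.0398%), with 1440 at an unadjusted p under 0.05 (6.37%). The shoot array of 50kPa/NormOx replicate 1 stood apart, with a mean correlation of 0.898 to the others, and without it 74 passed, 50 higher and 24 lower. Leaving out other single shoot arrays gave 8 and 60 (25 kPa replicates 1 and 3), 6 and 7 (97kPa/HypOx replicates 1 and 2), 12 (50kPa/NormOx replicate 3) and 13 (25kPa/NormOx replicate 2). The probe sets that rose in both tissues were 12 of the 12 shoot rises and 12 of the 378 root rises, and 9 of them were among the 55. Without the shoot array that stood apart they were 25 of 50 shoot rises, 16 of them among the 55. The 12 included AT4G33560 (2.45 in shoots, adjusted p = 0.0099), AHB1 (1.74, adjusted p = 0.0325), ACO1 (1.69, adjusted p = 0.0138), PCO1 (1.22, adjusted p = 0.0380), PDC1 (1.14, adjusted p = 0.0138) and GLB3 (0.67, adjusted p = 0.0099). The difference between tissues was tested directly on all 21 arrays, the tissues apparently having been normalized separately. In this test 113 probe sets passed (0.500%), 85 with the root difference above the shoot difference (0.376%) and 28 with it below. For 30 of the 55 rises the root difference was larger past this test, and for 35 of them without the shoot array that stood apart. The others did not pass, which does not make them equal in the tissues. AT1G33055 rose by 3.53 in roots, and its shoot difference of 0.10 did not pass. ERF073 was at 2.15 in roots and 0.10 in shoots, and ANR1 at 1.70 and 0.12. AHB1, ACO1 and PCO1 differed between tissues by 0.67, 0.48 and 0.93, and these differences did not pass (adjusted p = 0.693, 0.771 and 0.239).

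**Figure D5:**
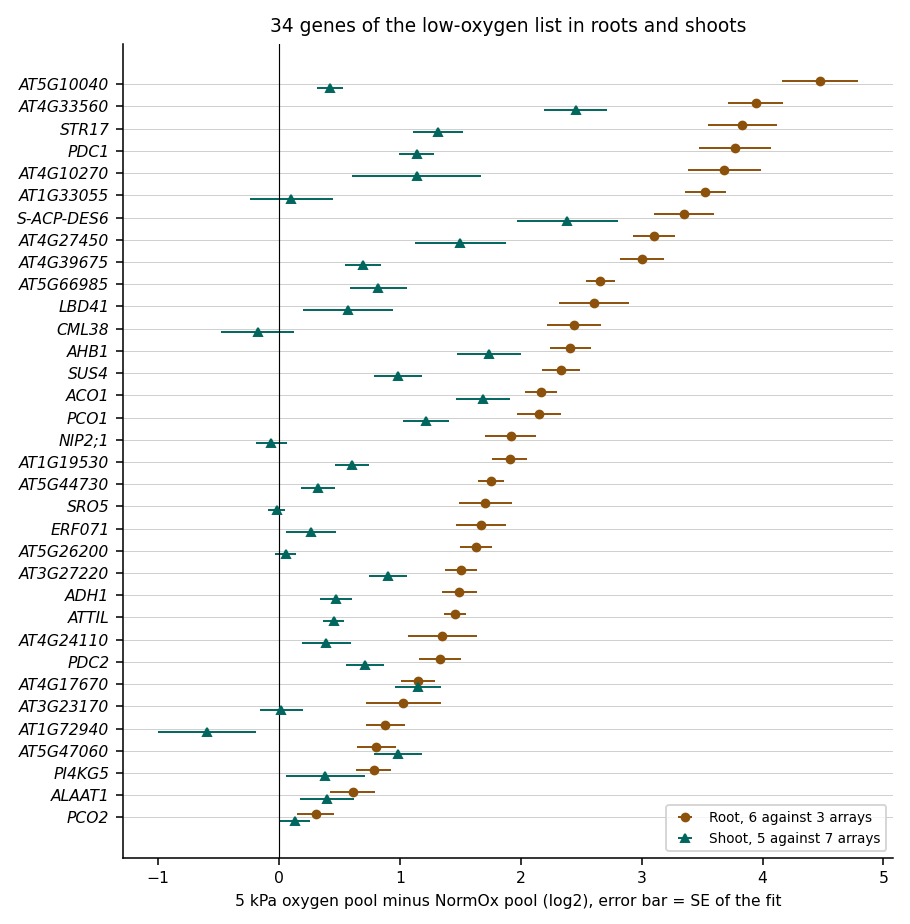
Low-oxygen pool minus normal-oxygen pool in log2 units, with the SE of the fit as error bar, for the 34 genes of the study's low-oxygen list in roots (brown circles, 6 against 3 arrays) and shoots (green triangles, 5 against 7 arrays). In roots 31 of the 34 passed. AT1G33055 lies at 3.53 in roots and 0.10 in shoots, and AHB1 at 2.41 and 1.74.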

How the data were processed

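Affymetrix ATH1 arrays measured 15 root and 18 shoot samples. The authors deposited log2 intensities after RMA (Robust Multi-chip Average) normalization, which were used as given. The submitters' processing notes also name Affymetrix Expression Console, with no version given in the sources used here. The paper's methods name the MAS5 algorithm as well, for the primary analysis. The deposited values look like RMA values, with root and shoot arrays apparently normalized separately. RMA compresses differences of dim genes, and the values carry no detection calls. Root values ran from 2.88 to 13.56. Arrays have no read depth, and the number of arrays limits the precision.

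Of 22746 probe sets, 140 of organelle genes were left out, leaving 22606 for testing. In GEO's annotation of the platform, 13513 had 1 gene, 503 had several and 8730 had none. Symbols were updated through RefSeq TAIR10.1, where 13436 matched, and the study's tables of changed genes named 234 more, from which no value was taken.

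R 4.3.3 with limma 3.58.1 (lmFit, eBayes) fitted the low-oxygen pool against the normal-oxygen pool on 9 arrays, and p-values were adjusted by Benjamini-Hochberg over the whole table. Within-pool contrasts used the same arrays with each atmosphere as its own group. Shoots were fitted on 12 arrays, and root minus shoot as an interaction on 21. The steps were tested on simulated data. Replicates are separate chambers per the methods, and p-values measure the spread between these arrays. Named genes are the 16 largest rises and 10 largest falls among called probe sets with 1 gene and no overlap between pools, plus up to 6 members of each list with the largest absolute difference. Genes outside this rule are said to be chosen after their values were seen or come from the study's low-oxygen list. The members and lists were chosen with earlier results of these data known. Alternatives changed the arrays in the fit, the grouping, the replicate block, a filter on dim probe sets, the normalization and the variance model, and each array was left out in turn.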

Additional observations from a re-analysis of the deposited data

Results flagged for a closer look

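In the pool of 6 low-oxygen root arrays, 3 values had a lone array far from the rest, where chance gives about 1 in 20 groups and 90 genes were examined. FBA6 read 8.67 on 97kPa/HypOx replicate 2, against 8.02 to 8.18 on the other 5 low-oxygen arrays. The subtilase ATSBT1.3 read 8.02 on 97kPa/HypOx replicate 3, against 6.88 to 7.27 on the others. The median of the 100 probe sets highest in shoots was 5.53 on 25 kPa replicate 3, against 4.98 to 5.12 on the others.

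The root difference exceeded the shoot difference past the interaction test for 31 of the 90 genes examined and fell below it for 5. The excess was largest on the log2 scale for genes without a described function and for PDC1: 4.05 for AT5G10040, 3.42 for AT1G33055, 3.07 for AT3G29970 and 2.63 for PDC1. It was 2.62 for CML38, 2.52 for STR17, 2.31 for UMAMIT14, 2.31 for AT4G39675, 2.04 for ERF073 and 1.98 for NIP2;1. Values between 1.5 and 2 were 1.91 for a probe set without a gene name, 1.83 for AT5G66985, 1.73 for SRO5, 1.59 for ANR1, 1.57 for AT5G26200, 1.55 for ICL, 1.54 for AT3G11930 and 1.52 for AT4G10260. Smaller ones were 1.43 for AT5G44730, 1.40 for C/VIF1, 1.35 for SUS4, 1.31 for AT1G19530, 1.27 for AT5G42200, 1.20 for AT5G23380, 1.18 for AT5G02580 and 1.08 for PSBO1. The remaining ones were 1.03 for AT2G47950, 1.03 for another unnamed probe set, 1.02 for ADH1, 1.00 for ATTIL and 0.71 for AT2G47710. Among the genes that fell in roots the interaction was -0.69 for FER4, -0.81 for ACP5, -0.82 for AT1G69526, -0.83 for AT5G62330 and -1.21 for AGP30. All 36 passed again without the shoot array of 50kPa/NormOx replicate 1, which stood apart, and 8 further genes then passed as well.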

How the results depend on the processing

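All 743 probe sets kept their direction under every alternative that tested them. That direction was largely fixed beforehand, since the fits shared arrays and the pools of 373 rises and 360 falls did not overlap. The 16 largest rises kept their call in 399 of 399 fits, whereas the 10 largest falls kept it in 188 of 243. The count of 743 became 89 with the spread of all 15 root arrays, 336 with that of 12, 414 for 97kPa/HypOx alone, 45 and 363 for 25 kPa against 25kPa/NormOx and 50kPa/NormOx alone, and 1370 with array weights. It ran from 197 to 878 with each array left out. The 15 root arrays include 97 kPa replicate 1, which stood apart with a mean correlation of 0.884 to the others. Same-numbered low-oxygen arrays correlated at 0.11, -0.01 and -0.046 in their deviations, and the difference of replicate 1 minus replicate 2 at 50kPa/NormOx correlated at 0.343 with that at 25 kPa and 0.258 with that at 97kPa/HypOx. Not every pair exceeded 0.1, so the numbers were not taken to pair the samples. With the replicate number as a block 261 passed, or 386 with each atmosphere its own group as well, an alternative chosen after seeing the data. The count at the study's threshold, 60, became 102 for 25 kPa against 50kPa/NormOx alone and ran from 55 to 70 with each array left out. The count of rises of at least 2-fold, 55, lay between 40 and 82 under the other alternatives and ran from 50 to 65 with each array left out.

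The shoot count of 21 ran from 6 to 74 with each array left out. After seeing the data, leaving out the shoot array that stood apart gave 48 with each atmosphere its own group, and the interaction count rose from 113 to 197. The comparison of 25 kPa with 97kPa/HypOx gave 0 in every fit, at unadjusted counts of 392 with all 15 arrays and 2121 with the block. SUC2 passed with array weights (-0.41, adjusted p = 0.0332). The superoxide dismutases, which passed nowhere, changed sign. For 97kPa/HypOx alone the differences were -0.13 for CSD1, 0.43 for FSD1 and -0.13 for CSD2, with array weights that of CSD2 was -0.0198, and without both replicates 3 that of FSD1 was 0.00023. With each array left out, CSD1 ran from -0.0688 to 0.194, FSD1 from -0.204 to 0.222 and CSD2 from -0.131 to 0.127. Of 1245 further alternatives over the 79 genes called and given by value, 1081 kept the call and 164 lost it, with 0 reversed. Their direction too was largely fixed by the shared arrays. Detection calls were not in the values used here, so a dim gene's fold is likely compressed. The causes of these changes in count were not tested.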

Other observations

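Rises of at least 2-fold outside the lists, with 2 more from the study's low-oxygen list, included enzymes of amino acid, organic acid and sugar metabolism, all chosen after their values were seen. ASP2 (AT5G19550), a cytosolic aspartate aminotransferase, spanned 9.94 to 10.54 with a median of 10.25 at low oxygen, against 8.25, 8.71 and 8.18 at normal oxygen. It rose 3.63-fold (1.86, SE 0.15, adjusted p = 2.46e-05), and the pools did not overlap. ICL (AT3G21720), the isocitrate lyase of the glyoxylate cycle, spanned 6.13 to 7.15 against 5.04, 5.14 and 5.49 and rose by 1.39 (adjusted p = 0.00194). C/VIF1 (AT1G47960), an inhibitor of invertase, spanned 6.06 to 6.86 against 4.81, 5.18 and 5.10 and rose by 1.45 (adjusted p = 0.000481). The pectin methylesterase PME18, which modifies the cell wall, rose by 1.00 (adjusted p = 0.002). ANR1 (AT2G14210), a MADS-box factor linked to lateral root growth in nitrate, spanned 6.51 to 6.93 against 4.78, 5.05 and 5.04 and rose by 1.70 (SE 0.10, adjusted p = 2.63e-06). Its 9 arrays formed compact groups, without overlap. The thioredoxin ATH8 rose by 1.79 (adjusted p = 0.000374). From the study's low-oxygen list, SRO5, of the RCD1-like family, rose by 1.71 (adjusted p = 0.00145) and the mitochondrial carrier AT5G26200 by 1.63 (adjusted p = 2.46e-05).

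Neighbouring genes on chromosome 4 moved in opposite directions. In the RefSeq order AT4G10260, a probable fructokinase, and AT4G10270, of the wound-responsive family, rose by 1.63 (adjusted p = 0.00447) and 3.68, whereas the next gene, AT4G10280, fell by 1.15. AT4G10265 lies among them and was not analysed here. Of the 743 probe sets that passed, 288 had no single gene name, and the largest differences among these were 2.05 and 2.04 upward and -1.07 downward.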
